A study of Homo sapiens with 14 samples.

Results

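The genes described here are 44 interferon-stimulated effector genes, the antiviral proteins that cells make in response to type I interferon, followed in human endothelial cells after 2 treatments aimed at CALCRL. They were taken by name from a list of known antiviral effectors; the rule uses no measured value, but earlier results of these data were known when the list was made. Of the 44, 42 were among the 11261 genes of the siRNA comparison and 32 among the 11835 of the deletion comparison, and all 32 were in both. LGALS3BP and IFITM1 were in neither table and their expression was not analysed here. They enter only the counts of promoter matches over the whole list.

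The cells were teloHAEC, aortic endothelial cells immortalised with telomerase, and 14 RNA libraries fell into 4 groups. The siRNA arm held 4 libraries of cells given siRNA against CALCRL by reverse transfection with lipid and 4 of cells given scrambled siRNA, all lysed after 24 hours. CALCRL encodes the calcitonin receptor-like receptor. The deletion arm held 3 libraries of cells that received Cas9 protein and guide RNAs on either side of an enhancer of CALCRL by electroporation, and 3 of cells that received Cas9 with a guide against HPRT, all collected after 2 days. The deletion was thus studied in pools of electroporated cells, and its controls had received Cas9 with a guide too. HPRT1, the target of that guide, had 186 derived mean counts in the controls and 175 after deletion (-0.09, SE 0.50, DESeq2 adjusted p 0.931, in the authors' deposited table), a difference smaller than its SE; whether the guide cut was not tested here. The labels do not say that replicates were separate cultures, so p-values measure only the spread between these libraries, which may be technical. The arms differ in delivery, time and kind of control, and these cannot be told apart in any comparison between them.

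Type I interferon binds a receptor on the cell surface and, through JAK kinases, activates transcription factors that bind interferon-stimulated response elements in promoters. The genes it switches on act at many steps of viral infection: some detect or cut viral RNA, some block translation, some hold virus at membranes, and some attach ISG15 or ADP-ribose to proteins. Endothelial cells express many of them at a low level without infection, and nucleic acids brought into a cell can also induce them.

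The response element can be reduced to a pattern of GAAA, any 2 bases and GAAA, and it was sought on both strands of RefSeq promoter windows (GRCh38.p14, 250 bases before to 50 after each annotated start site). Overlapping matches were counted separately. Pairs of GAAA with only 1 base between them, present in the windows of OAS1 and XAF1 among others, were not counted as matches. Of the 37 effector genes with a promoter entry, LGALS3BP and IFITM1 included, 27 had a match (73.0%). A match was present in 1195 of 27305 genes in the whole promoter table (4.38%). It was present in 337 of the 8413 genes of the siRNA comparison that had an entry (4.01%). At least 2 matches in 1 window were found in 15 of the 37 effector genes (40.5%) and in 85 of all 27305 genes (0.311%). These genes are known as interferon targets, so the share describes the list and is not a result of the treatments. No entry was held for OAS2, OASL, IFIT2, MX2, USP18, IFITM2 and PML.

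Stretches of 6 promoters, 160 bases before the start site to 4 after it, are printed as examples, chosen after their values were seen: IFIT1, ISG15, IFI6 and DTX3L were called lower under siRNA, IFITM3 was called higher after deletion, and BST2 was called in neither arm. Capitals mark every match to the pattern or its reverse complement. In GRCh38.p14 the stretches lie at chr10:89392463-89392627 on the plus strand for IFIT1, chr1:1013337-1013501 on the plus strand for ISG15, chr1:27672188-27672352 on the minus strand for IFI6, chr3:122564178-122564342 on the plus strand for DTX3L, chr11:320856-321020 on the minus strand for IFITM3 and chr19:17405626-17405790 on the minus strand for BST2.
IFIT1: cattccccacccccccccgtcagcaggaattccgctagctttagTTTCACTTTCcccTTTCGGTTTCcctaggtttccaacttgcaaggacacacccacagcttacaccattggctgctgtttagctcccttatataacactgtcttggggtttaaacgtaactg
ISG15: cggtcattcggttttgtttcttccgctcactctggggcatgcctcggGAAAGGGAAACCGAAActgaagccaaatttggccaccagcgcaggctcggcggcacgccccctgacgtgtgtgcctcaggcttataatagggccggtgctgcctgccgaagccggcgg
IFI6: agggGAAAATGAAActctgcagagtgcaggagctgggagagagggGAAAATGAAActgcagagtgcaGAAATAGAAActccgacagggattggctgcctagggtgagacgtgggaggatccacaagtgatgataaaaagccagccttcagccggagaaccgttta
DTX3L: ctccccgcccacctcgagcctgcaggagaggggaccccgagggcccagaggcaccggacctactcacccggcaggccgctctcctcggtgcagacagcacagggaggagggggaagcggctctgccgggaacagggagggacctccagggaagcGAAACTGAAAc
IFITM3: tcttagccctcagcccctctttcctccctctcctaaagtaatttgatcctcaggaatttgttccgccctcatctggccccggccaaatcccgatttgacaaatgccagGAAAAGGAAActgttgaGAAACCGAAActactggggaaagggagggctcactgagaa
BST2: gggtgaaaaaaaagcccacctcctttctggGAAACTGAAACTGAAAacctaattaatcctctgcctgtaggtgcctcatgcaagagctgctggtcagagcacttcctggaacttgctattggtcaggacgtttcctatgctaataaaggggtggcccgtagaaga

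Counting the start site as position 0, the IFIT1 matches began at -116 and -103, and the overlapping pair of ISG15 at -113 and -107. IFI6 had 3 matches, beginning at -156, -115 and -93. The single match of DTX3L spanned the start site itself, from -6 to 3, and it is the same 10 bases (chr3:122564332-122564341) that lie at -41 to -32 in the window of PARP9, which is transcribed the other way. BST2 had an overlapping pair beginning at -130 and -124, so a match of this kind was present in a promoter whose gene did not pass the test in either arm.

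**Figure D1:**
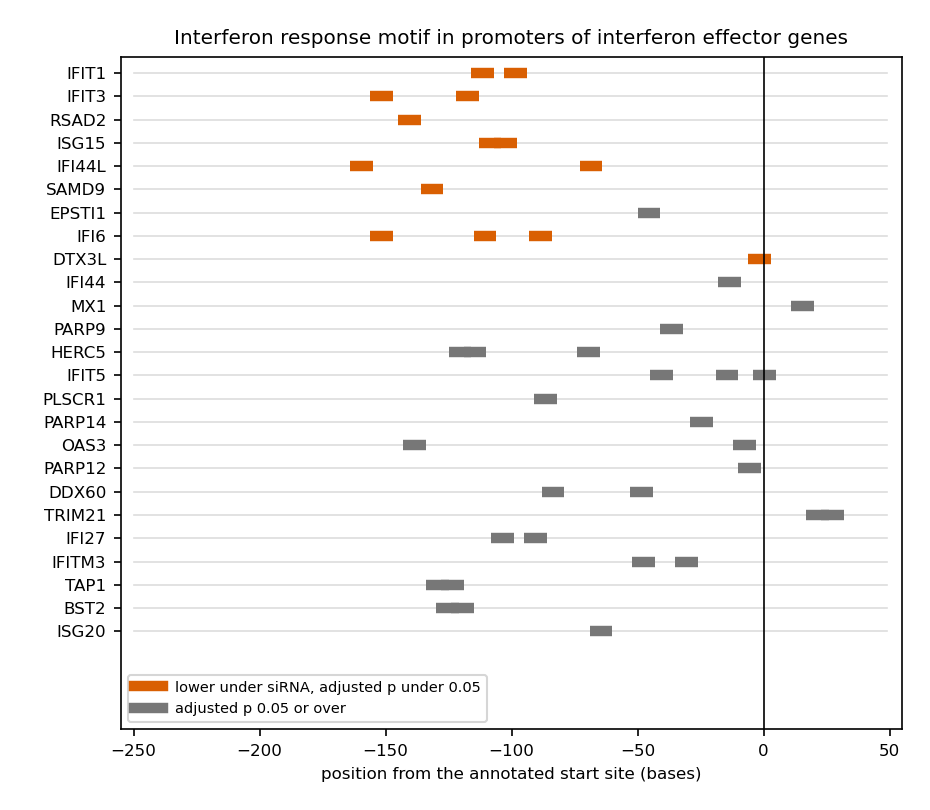
Positions of the response element pattern (bars, 10 bases each) in the first promoter window with a match, for the 25 effector genes that had a match and were listed in the siRNA comparison. The x axis gives bases from the annotated start site (vertical line), genes are ordered from the lowest log2 fold change under siRNA (top) to the highest, and orange marks genes with an adjusted p under 0.05. Genes with and without a call both have matches, and most matches lie upstream of the start site.

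CALCRL, the target of both treatments, was lower than control in both arms. In the authors' deposited table, CALCRL had a log2 fold change of -1.56 (SE 0.17) under siRNA, with an adjusted p of 1.9e-17 by the DESeq2 Wald test. The authors' deposited table gave -1.47 (SE 0.43) after deletion, with a DESeq2 adjusted p of 0.00962. With a Student t reference, or with the statistics divided by their robust SD, no gene of the deletion comparison was called, CALCRL included. Of 12 endothelial marker genes, 11 were listed in each arm and none passed the test under siRNA, where 1 had an unadjusted p under 0.05; KDR and CDH5 were lower after deletion. Of the other markers, 3 of 6 for smooth muscle (ACTA2, TAGLN and SMTN) and 1 of 4 for epithelium (KRT19, at means of 1996 and 2430 normalised counts in the siRNA and deletion arms) were listed in each table and none was called. None of 5 fibroblast or 6 leukocyte markers was listed in either. The deposited tables give 1 mean per gene over all libraries of an arm and no value for a single library, so groups are described by a mean derived from that value and the fold change, and overlap between libraries could not be examined. In the authors' deposited tables the SE had a median of 0.17 under siRNA and 0.41 after deletion, so the same change was harder to detect in the deletion arm.

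Under siRNA the effector genes were lower almost throughout. Of 42 genes, 41 had a negative log2 fold change in the authors' deposited table (97.6%, against 49.4% of all genes), and the median of the 42 was -0.44 against 0.00 for all genes. All genes of an arm were measured in the same libraries, so such counts across genes are not counts of independent observations. An adjusted p under 0.05 by the authors' DESeq2 Wald test, which is what "called" means here, was reached by 13 of the 42 in the lower direction, where the background was 2.42% of all genes. None was called higher, where the background was 1.05%, and none had an unadjusted p under 0.05 in that direction. An unadjusted p under 0.05 was reached by 26, all lower. In bulk RNA, less RNA per cell and fewer cells expressing a gene cannot be told apart. With a Student t reference of 6 degrees of freedom in place of the normal, none of the 13 was called and 21 effector genes had an unadjusted p under 0.05, and only 5 of all 11261 genes were called.

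**Figure D2:**
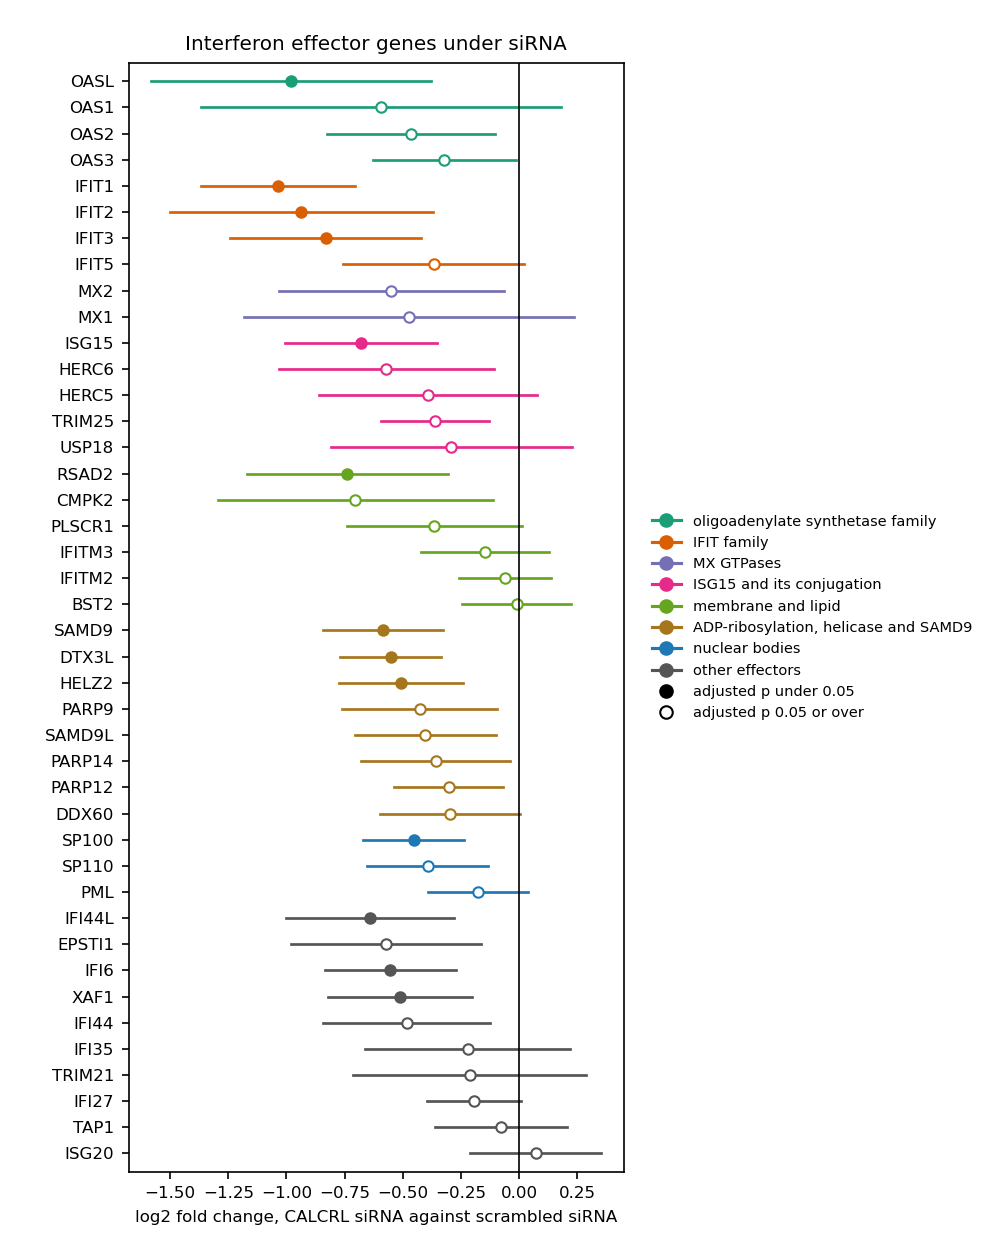
Log2 fold change of 42 effector genes, CALCRL siRNA against scrambled siRNA, from the authors' deposited table. Points are the fold changes, lines their 95% intervals from the standard error, colours the role of the gene, and filled points an adjusted p under 0.05. All points except ISG20 lie left of 0, and IFIT1, OASL, IFIT2 and IFIT3 lie furthest left.

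IFIT1 binds viral RNA that lacks the host's cap methylation and stops its translation, and IFIT1 to IFIT3 form a complex. The IFIT family held the lowest value of the list. IFIT1 had a derived mean of 119 normalised counts with scrambled siRNA and 57.8 with CALCRL siRNA. Its log2 fold change in the authors' deposited table was -1.04 (SE 0.17, DESeq2 adjusted p 2.0e-07), which leaves 48.7% of control (95% interval 38.7 to 61.3). IFIT2 fell from 29.1 to 15.2 counts, a log2 fold change of -0.94 (SE 0.29, DESeq2 adjusted p 0.0376) in the authors' deposited table. IFIT3 fell from 182 to 102 counts, to 56.2% of control (42.3 to 74.7), with a log2 fold change of -0.83 in the authors' deposited table. IFIT5, a member that binds RNA alone, went from 103 to 80.0 counts and was not called (-0.37, SE 0.20, in the authors' deposited table). The 4 IFIT genes share 1 locus, and the nearest listed genes outside the list, LIPA and PANK1, had adjusted p-values of 0.753 and 0.963 in the authors' deposited table.

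The oligoadenylate synthetases make 2'-5'-linked adenylates on double-stranded RNA, which switch on RNase L, while OASL lacks that activity and acts on RNA sensing. OASL fell from 24.1 to 12.2 counts, with a log2 fold change of -0.98 (SE 0.31, DESeq2 adjusted p 0.0432) in the authors' deposited table. OAS1, OAS2 and OAS3 were at -0.59, -0.46 and -0.32 in the authors' deposited table, and none of them was called. OAS1 went from 132 to 87.7 derived mean counts with an SE of 0.40 in the authors' deposited table, 2.31 times the median SE of the genes nearest to it in mean count. Its spread between libraries was therefore wide for its level, and its interval ran from 38.7% to 113% of control.

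The MX proteins are dynamin-like GTPases that trap viral nucleocapsids. MX1 went from 510 to 367 derived mean counts and MX2 from 102 to 69.7. In the authors' deposited table their log2 fold changes were -0.47 and -0.55, with no call for either. MX1 had the highest SE ratio of the list, 3.16 times that of genes of similar mean. Across the 42 genes the median ratio was 1.09, and 29 lay above 1 (69.0%, against 49.7% of all genes), so the effector genes were measured somewhat less precisely than other genes of their level.

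**Figure D3:**
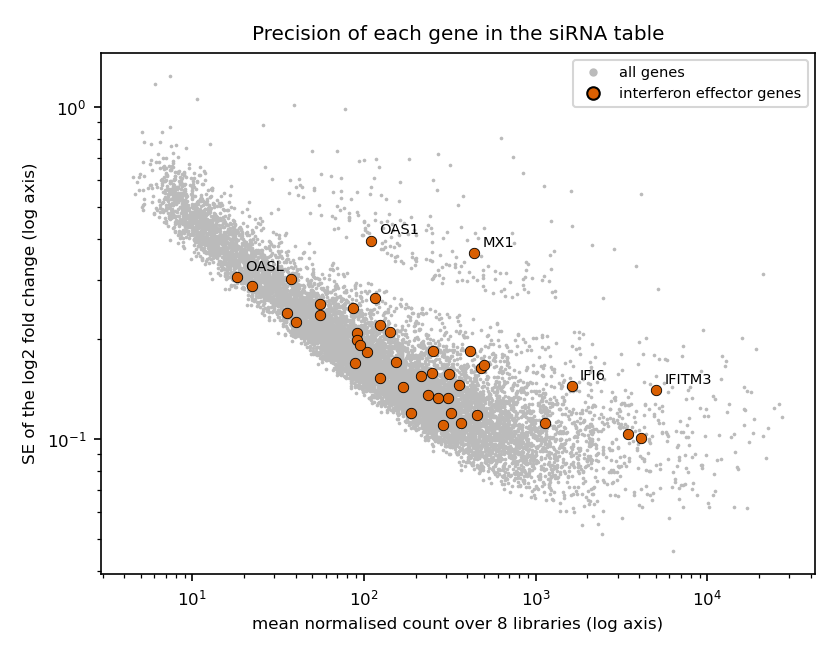
Standard error of the log2 fold change against the mean normalised count (both log axes) in the authors' deposited table of the siRNA comparison, for all 11261 genes (grey) and the 42 effector genes (orange). OAS1 and MX1 lie clearly above the main band, at SEs of 0.40 and 0.36, while OASL lies within it.

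ISG15 is a ubiquitin-like protein, HERC5 is the ligase that attaches it, TRIM25 is a ligase that also activates RNA sensing, and USP18 removes ISG15 and restrains the interferon receptor. ISG15 fell from 614 to 384 derived mean counts, to 62.5% of control (49.8 to 78.4). The authors' deposited table gave it a log2 fold change of -0.68 (SE 0.17) and a DESeq2 adjusted p of 0.00296. The conjugation genes were lower by less and none was called: HERC6 was at -0.57, HERC5 at -0.39, TRIM25 at -0.36 and USP18 at -0.29 in the authors' deposited table. TRIM25 had the lowest adjusted p of these 4, 0.0592 by the authors' DESeq2 Wald test in the authors' deposited table. After a trend of fold change on GC content was removed it was called, with an adjusted p of 0.0456 (range over all settings tried 0.0456 to 0.608).

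Among proteins that act on membranes and lipids, RSAD2 (viperin, a radical enzyme that makes a chain-terminating nucleotide) fell from 156 to 93.4 derived mean counts. Its log2 fold change was -0.74 (SE 0.22, DESeq2 adjusted p 0.0288) in the authors' deposited table. CMPK2, a nucleotide kinase encoded beside RSAD2, had -0.70 (SE 0.30) and no call in the authors' deposited table. PLSCR1, a scramblase, was at -0.36 in the authors' deposited table and not called. IFITM2 and IFITM3, which block fusion of virus in endosomes, and BST2 (tetherin), which holds budding virus at the surface, were close to their controls. IFITM3 had 5271 and 4761 derived mean counts in the control and siRNA groups, IFITM2 had 4193 and 4026, and BST2 had 322 and 319. For BST2 the 95% interval ran from 84.4% to 117% of control, so a fall to the 48.7% of IFIT1 lies outside it.

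PARP9, PARP12 and PARP14 belong to the ADP-ribosyltransferase family, and DTX3L is the ubiquitin ligase partner of PARP9. DTX3L fell from 438 to 299 derived mean counts, with a log2 fold change of -0.55 (SE 0.11, DESeq2 adjusted p 8.6e-05) in the authors' deposited table, the second lowest adjusted p of the list. PARP9, with which it shares the promoter match above, went from 176 to 131 counts and was not called (-0.43, SE 0.17, in the authors' deposited table). PARP14 was at -0.36 and PARP12 at -0.30 in the authors' deposited table, both without a call. SAMD9, which inhibits translation, fell from 325 to 217 derived mean counts (-0.59, SE 0.13, DESeq2 adjusted p 0.00077, in the authors' deposited table). Its neighbour and paralogue SAMD9L was at -0.40 in the authors' deposited table with no call. HELZ2, a helicase, fell from 278 to 195 counts (-0.51, SE 0.14, in the authors' deposited table), and DDX60, a helicase of the RNA sensing pathway, was at -0.30 and not called.

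SP100 and PML build nuclear bodies that silence incoming viral DNA. SP100 fell from 1302 to 951 derived mean counts, to 73.0% of control (62.7 to 85.0). PML was at -0.18 (SE 0.11) and SP110 at -0.39 (SE 0.13) in the authors' deposited table, without a call. Of the remaining genes, IFI6, a small membrane protein that limits cell death, fell from 1923 to 1310 derived mean counts. IFI44L, XAF1 (an antagonist of the apoptosis inhibitor XIAP) and IFI6 were called at log2 fold changes of -0.64, -0.51 and -0.55 in the authors' deposited table. An exon of XAF1 overlaps an opposite-strand gene, PRAL, and use of the strand in counting was not given in the sources used here. EPSTI1 was at -0.57, IFI44 at -0.48, IFI35 at -0.22, TRIM21 (an intracellular antibody receptor) at -0.21 and IFI27 at -0.19 in the authors' deposited table, with no call. TAP1, a subunit of the peptide transporter that loads MHC class I, was at -0.08, and ISG20, an RNA exonuclease, was the only gene above 0, at 0.07 (SE 0.14) in the authors' deposited table.

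The promoter pattern did not separate the genes that were called. It was present in 8 of the 11 called genes with a promoter entry (72.7%) and in 17 of the 24 listed genes without a call (70.8%). SP100, HELZ2 and XAF1 were called with no match in their windows, though a window of XAF1 holds a pair of GAAA with 1 base between. Across the 42 genes, the log2 fold change and the log2 mean count had a Spearman's rho of 0.34, against -0.01 over all 11261 genes, a description across genes that share the same libraries. A 7-base word, GTAACAA, was chosen on these same data, because genes with it in the 3' UTR tended to be lower under this siRNA. It was sought in the longest annotated 3' UTR of each gene. Over all genes, those with the word had a median log2 fold change of -0.12 under siRNA, against 0.01 for those without it, and 150 of 1136 against 116 of 9503 were called lower. The medians after deletion, where no siRNA was given, were -0.14 and 0.01, while 102 of 1134 against 851 of 9485 were called lower. The word was found in 3 effector genes, IFIT1, IFIT2 and ISG20 (7.14%, against 10.7% of genes with a 3' UTR). Without those 3, the median log2 fold change of the other 39 genes was -0.43 and 11 were called. Whether the siRNA acted through the word, directly or by way of another gene, was not tested. The nearest listed genes on each side of the effector genes, in no interferon list, numbered 57 and had a median of -0.01, with 1 called in each direction.

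Other genes of the pathway did not all follow. Of 29 genes of RNA sensing and interferon signalling, 25 were listed under siRNA. None of the 25 was called by the authors' DESeq2 Wald test, 6 had an unadjusted p under 0.05, all lower, and the median log2 fold change was -0.02. IFNB1 and IFNL1, which encode interferons, were not analysed here. None of 15 listed genes of MHC class I presentation was called, none had an unadjusted p under 0.05, and their median was -0.01. A further list of 31 interferon-induced genes had 26 below 0 and a median of -0.29, with 2 called, ZNFX1 at -0.62 (SE 0.18) and WARS at -0.29 (SE 0.09) in the authors' deposited table. ZNFX1 is a helicase that senses viral RNA, and WARS is the cytosolic tryptophanyl-tRNA synthetase. Of 20 listed NF-kB targets, 3 were called higher (CSF3, CXCL3 and CXCL1) and 1 lower (BIRC3), with a median of 0.10. Over all genes of this arm, 1.05% were called higher and 2.42% lower.

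After enhancer deletion the same genes had no common direction. Of the 32 listed, 18 were higher and 14 lower. Their median in the authors' deposited table was 0.06 on the log2 scale, against 0.00 for all genes. The call was reached by 3 in the higher direction, where the background was 7.4% of all genes, and by none in the lower direction, where it was 8.44%. At an unadjusted p under 0.05 there were 5 higher and 4 lower. A share of 3 in 32 is near the background of this arm. With a Student t reference of 4 degrees of freedom, or with the statistics divided by their robust SD of 1.88, no gene in the whole table was called; 3 effector genes by the first and 0 by the second had an unadjusted p under 0.05.

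The 3 called genes were IFITM3, IFITM2 and PML. IFITM3 had a derived mean of 2194 normalised counts with the HPRT guide and 5080 after deletion. Its log2 fold change in the authors' deposited table was 1.21 (SE 0.34, DESeq2 adjusted p 0.00647). IFITM2 went from 2834 to 4937 derived mean counts (0.80, SE 0.23, DESeq2 adjusted p 0.0094, in the authors' deposited table). These genes are paralogues: of 415 stretches of 86 bases, the read length, in the last 500 bases of the transcript, 36 of IFITM3 (8.67%) and 17 of IFITM2 (4.10%) also occur in another gene, so their counts are not wholly separate. Their transcript ends are rich in GC (60.0% and 56.8%, against a median of 42.0% over all genes). With the GC trend removed neither was called, at 0.69 for IFITM3 (adjusted p 0.160, range over all settings 0.00562 to 0.976) and 0.38 for IFITM2 (adjusted p 0.285, range 0.00817 to 0.976). PML went from 242 to 479 derived mean counts, with a log2 fold change of 0.98 (SE 0.32, DESeq2 adjusted p 0.0226) in the authors' deposited table, and was called with the GC trend removed as well.

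**Figure D4:**
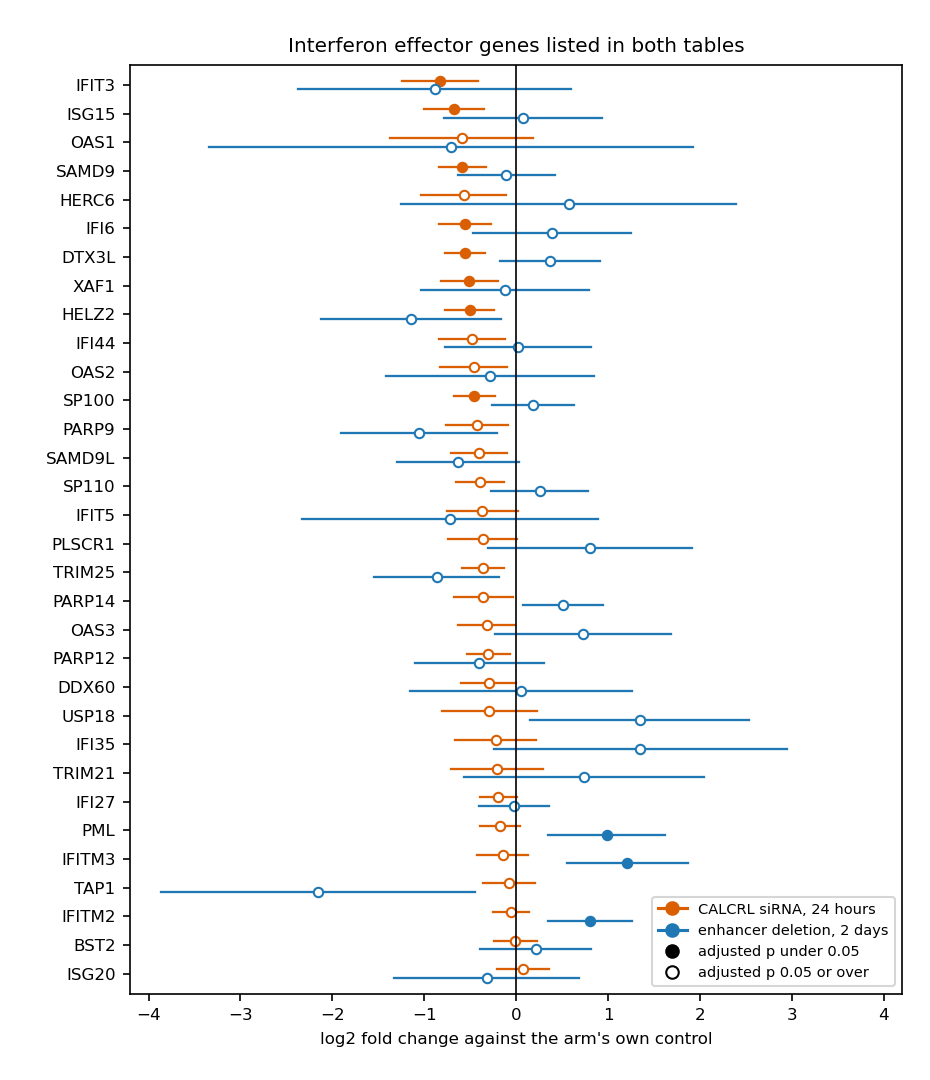
Log2 fold changes with 95% intervals of the 32 effector genes listed in both tables, from the authors' deposited tables, each arm against its own control (orange, siRNA after 24 hours; blue, enhancer deletion after 2 days). Filled points have an adjusted p under 0.05. The siRNA points lie close to or left of 0, while the deletion points spread to both sides with wider intervals.

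The lower end of the deletion arm was TAP1, which went from 290 to 65.0 derived mean counts. The authors' deposited table put it at a log2 fold change of -2.16, with an SE of 0.87, 2.46 times that of genes of similar mean, and a DESeq2 adjusted p of 0.0707. An opposite-strand gene, PSMB8-AS1, overlaps an exon of TAP1, with the same limit as for XAF1. TAP2, the other subunit of the transporter and no member of the list, had a value of -2.68 (SE 0.39, DESeq2 adjusted p 1.3e-08) in the authors' deposited table. The other 3 genes below 0 with an unadjusted p under 0.05 were HELZ2, PARP9 and TRIM25, at -1.14, -1.05 and -0.87 in the authors' deposited table, with adjusted p-values between 0.0674 and 0.0982. With the GC trend removed, HELZ2 and TRIM25 were called lower and PARP14 higher, so that 4 effector genes were called, 2 in each direction. Only PML of these was called without that step, and 12.4% of all genes were called with it.

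For most effector genes the deletion arm gave little precision, with a median SE of 0.44 over the 32. USP18 went from 51.3 to 130 derived mean counts and IFI35 from 11.5 to 29.4, and neither was called, at adjusted p-values of 0.111 and 0.257 by DESeq2 in the authors' deposited table. OAS1 had a mean of only 6.73 normalised counts and an interval from 9.86% to 379% of control. IFIT3, the IFIT gene with a call under siRNA that was listed here, went from 26.3 to 14.2 derived mean counts, and the authors' deposited table gave it -0.89 (SE 0.76), an interval from 19.2% to 152% of control. ISG15 had a value of 0.08 (SE 0.44) in the authors' deposited table, and at -0.56 with the GC trend removed. BST2 had a value of 0.21 (SE 0.31) in the authors' deposited table, and at -0.30 with the GC trend removed, both without a call.

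The related lists gave mixed calls in this arm, where 7.4% of all genes were called higher and 8.44% lower. Among 24 listed sensing and signalling genes, IRF3, a transcription factor of interferon induction, was called higher (1.22, SE 0.38, in the authors' deposited table). ADAR, which edits double-stranded RNA, and SOCS3, a feedback inhibitor of cytokine receptors, were called lower. Among 14 MHC class I genes, NLRC5 and TAPBP were called higher, and B2M and TAP2 lower. ZNFX1 and WARS, both lower under siRNA, were called higher after deletion, at 1.11 (SE 0.36) and 0.83 (SE 0.29) in the authors' deposited table, along with SHISA5. Of 14 listed NF-kB targets, 4 were called lower (NFKBIA, CCL2, CXCL1 and IL8).

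For every shared gene, the fold changes of the arms were set against each other with their standard errors and a normal reference, with Benjamini-Hochberg adjustment over 10891 genes. Of 32 effector genes, 22 had a lower value under siRNA than after deletion (68.8%, against 50.0% of all genes), with a median difference of -0.49 against 0.00. A difference was called for 5, all lower under siRNA, where the background was 6.49% (13.7% of all genes in either direction): IFITM3, PML, DTX3L, PARP14 and IFITM2. IFITM3 differed by -1.36 (SE 0.37, adjusted p 0.00579) and PML by -1.16 (SE 0.34, adjusted p 0.012). DTX3L differed by -0.92 (SE 0.30, adjusted p 0.0236), and it was the only one of the 5 that was itself called under siRNA. With a Student t reference, or with the statistics divided by their robust SD, no difference was called among these or all genes, and 6 and 1 effector genes had an unadjusted p under 0.05. With the GC trend removed, DTX3L, PARP14 and PML were still called, SP100 joined them, and IFITM3 (-0.86, adjusted p 0.106, range over all settings 0.00514 to 0.992) and IFITM2 (-0.46, adjusted p 0.232, range 0.0113 to 0.992) were not. With that trend removed, 11.3% of all genes had a called difference. The differences of IFIT3 and OAS1 without that step, at 0.06 and 0.12, had intervals from -1.49 to 1.60 and from -2.63 to 2.86. Over the 32 genes, the log2 fold changes of the arms had a Spearman's rho of 0.31, given as a description across genes.

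The level of the effector genes, as the mean over treated and control libraries of an arm together, also differed between the tables. Each table was normalised separately, so each level is given in CPM of its own table's sum of mean counts, and no test was made across tables. The siRNA table's level over the deletion table's had a median of 2.21 over the 32 effector genes, against 1.01 over 10894 genes in both tables. It exceeded the median of all genes for 31 of the 32 and their 95th percentile of 2.04 for 18. IFI6 stood at 356 CPM in the siRNA table and at 15.4 CPM in the deletion table, a ratio of 23.1. OAS1 had a ratio of 18.5, IFIT3 of 7.96, XAF1 of 7.54, OAS2 of 5.69, OAS3 of 5.35 and ISG15 of 5.18. PML was the lowest, at 0.905, with SAMD9, BST2 and IFITM2 between 1.02 and 1.20. The NF-kB targets had a higher median ratio still, 5.93 over 14 genes, while the sensing and signalling genes were at 1.12 over 24. Lipid transfection against electroporation, scrambled siRNA against Cas9 with an HPRT guide, and 24 hours against 2 days all differ between the arms. Their part in these levels was not tested.

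**Figure D5:**
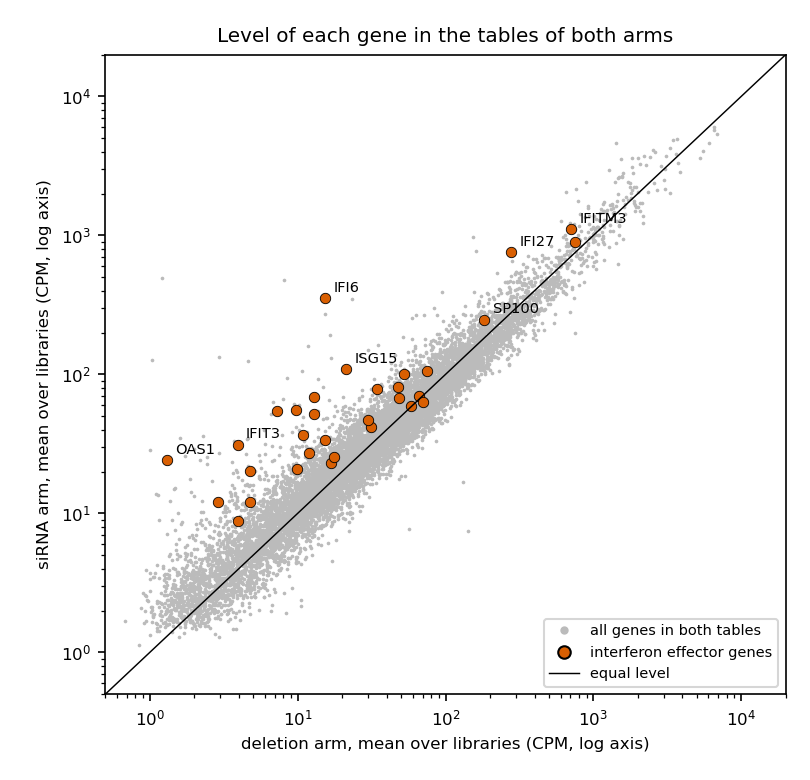
Mean level of each gene (CPM of its table's sum) in the siRNA arm (y axis) against the deletion arm (x axis), both log axes, for 10894 genes in both tables (grey) and the 32 effector genes (orange). The line marks equal levels, and 31 of the 32 effector genes have a higher ratio than the median gene, with IFI6 and OAS1 furthest above the line.

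The 10 genes listed only in the siRNA table held the 3 lowest fold changes of the effector genes in that arm. They were IFIT1, IFIT2, OASL, RSAD2, CMPK2, IFI44L, EPSTI1, MX1, MX2 and HERC5, and their mean counts under siRNA ran from 18.1 to 438 with a median of 87.0. Of all 7872 siRNA genes with means in that range, 7805 (99.1%) were also in the deletion table. These 10 were not analysed here in the deletion arm. They included 5 of the 13 genes called lower under siRNA, and their median log2 fold change was -0.67, against -0.37 for the 32 genes in both tables. Among those 32, the log2 fold change under siRNA and the log2 ratio of levels between the arms had a Spearman's rho of -0.42, so genes with a higher level in the siRNA arm tended to have the lower fold changes there. That relation is a description across genes of the same libraries, and a gene's mean enters the ratio.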

How the data were processed

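The authors' own comparison tables were used, 1 for each arm, over 14 libraries of 3' mRNA sequencing, which reads only the polyadenylated end of a transcript. Per the file headers, each row gives a mean normalised count, a log2 fold change and its SE, and DESeq2's Wald score with the p-value before and after adjustment. Reads had been counted per gene with featureCounts, as the names of the deposited files state. The submitters' processing notes list hg19 and edgeR 3.24.3, with no role. The aligner, annotation, filters and use of the strand were not given in the sources used here. Groups came from the sample titles.

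Since the authors deposited no value per library in these tables, depth per library is unknown, and count models, a replicate block and leaving out libraries could not be run. Every call within an arm is the authors' DESeq2 Wald test at an adjusted p under 0.05. Intervals (95%), group means, percentages of control and differences between arms (normal reference, Benjamini-Hochberg adjustment) were computed from the deposited values, in Python 3.11.15 with SciPy 1.17.1. The test of the difference was tried on simulated fold changes drawn with the deposited SEs. That cannot show whether those SEs are large enough for these data. GC content, read-length stretches and neighbours came from GENCODE on GRCh38, matched by gene ID, and promoters from RefSeq. For the alternative without a GC trend, a lowess curve from statsmodels 0.14.6 (span 0.3) was subtracted. All listed effector genes are named, and related genes where called. Members and lists were chosen with earlier results of these data known.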

Additional observations from a re-analysis of the deposited data

Results flagged for a closer look

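For 5 effector genes the effect under siRNA and the effect after deletion differed by the test of the difference itself, computed from the authors' deposited tables with Benjamini-Hochberg adjustment over all shared genes, of which 13.7% were called in either direction, so 5 of 32 is near that share. The siRNA value minus the deletion value was -1.358 for IFITM3, -1.16 for PML, -0.9173 for DTX3L, -0.8686 for PARP14 and -0.8595 for IFITM2, on the log2 scale. In each of the 5 the siRNA value was below 0 and the deletion value above it. For IFITM3, PML and IFITM2 the deletion value was the one that had passed the test within its arm, for DTX3L the siRNA value, and for PARP14 neither. The arms differ in delivery, time and control, which cannot be told apart from the treatments.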

How the results depend on the processing

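No paired analysis was possible because the deposited tables hold no value per library, and for the same reason leaving out each replicate in turn was not run. With a Student t reference 0 effector genes were called under siRNA, after deletion or for the difference, against 13, 3 and 5, with 21, 3 and 6 at an unadjusted p under 0.05; all genes called numbered 5, 0 and 0. With statistics divided by their robust SD the counts were 8, 0 and 0, with 25, 0 and 1 at an unadjusted p under 0.05. The shares of all genes called were 2.33%, 0% and 0%. At an adjusted p under 0.01 the counts of effector genes were 8 under siRNA and 1 for the difference. The shares of all genes called were 2.16% and 4.95%. At 0.1 the counts were 8 after deletion (4 in each direction) and 8 for the difference, where 22.9% and 21.0% of all genes were called. Re-centring on the median gene and a minimum mean count of 20 left all 3 counts within 1.5 times. Removal of the GC trend gave 14, 4 and 4, of which 13, 1 and 3 were called without it. With the trend removed, 3.26%, 12.4% and 11.3% of all genes were called. The median log2 fold change ranged from -0.44 to -0.43 under siRNA and from 0.06 to 0.18 after deletion. GC removal turned the sign of uncalled values: after deletion BST2 became -0.3014, ISG15 -0.5591 and SAMD9 0.1699, and in the difference BST2 became 0.2737, IFI27 0.1951 and IFIT3 -0.1067. No value of a single gene under siRNA changed sign. The cause was not tested. In the deletion arm the median SE of the 32 effector genes was 0.44, against a median log2 fold change of -0.37 for the same genes under siRNA. For most of these genes the interval was too wide to detect a change of that size. It was widest for genes with means below about 20 counts, such as OAS1 and HERC6.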
